A study of Homo sapiens with 2 samples.

Results

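The long-chain acyl-CoA synthetases are a family of 5 human genes, ACSL1, ACSL3, ACSL4, ACSL5 and ACSL6, and all 5 of 5 were placed among the topologically associating domains of HepG2 cells. They were selected by name from 19974 protein-coding genes, of which 19602 had a domain in both lists, and each was placed by the middle of its RefSeq record on hg38. A topologically associating domain is a stretch of chromosome that folds mainly onto itself, and a boundary is the edge of such a stretch. HepG2 is an established human liver cancer cell line, and the domains were read from Hi-C, an assay that joins and sequences DNA ends found near one another in the nucleus. The fatty acid (PA+OA) library came from HepG2 cells kept for 48 h in DMEM with 1% fatty acid-free BSA, 120 µM palmitic acid (saturated) and 240 µM oleic acid (monounsaturated). The mock library came from the same line given DMSO diluted 1 to 1000 for 48 h, and the labels can be read with or without BSA in its medium. There was 1 library, with 1 list of domains, in either group, so every difference is between 2 libraries, with no test of the treatment. The lists hold domain edges alone, in steps of 40 kb (1 bin), so distances are finer than the lists resolve. Expression and the cell type's markers cannot be read from them, and the read depth is unknown.

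Long-chain acyl-CoA synthetases join a fatty acid to coenzyme A at the cost of ATP, and free fatty acids such as palmitate and oleate must be activated in this way before a cell can oxidise them, store them in triglyceride or build them into phospholipids. ACSL1 is the main member of liver and fat tissue and a target of the fatty acid-activated receptor PPARα. ACSL3 sits on the endoplasmic reticulum and on growing lipid droplets, and ACSL4 prefers arachidonate and sets how readily cells undergo ferroptosis. ACSL5 is abundant in intestine and liver, and ACSL6 is best known from brain, where it handles docosahexaenoate. By sequence, ACSL1, ACSL5 and ACSL6 form one branch of the family, and ACSL3 and ACSL4 the other.

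The promoter of ACSL1 and that of ACSL5 are shown because these are the members whose domains differed between the lists, and that of ACSL3 because a boundary lay nearest to this gene. Each stretch runs from 250 bases before to 50 bases after the outermost RefSeq start site (GRCh38.p14), and capitals mark matches to GGGCGG, the GC box, or CCAAT, the CCAAT box, on either strand, where matches may overlap.
ACSL1, chr4:184825919-184826218, minus strand: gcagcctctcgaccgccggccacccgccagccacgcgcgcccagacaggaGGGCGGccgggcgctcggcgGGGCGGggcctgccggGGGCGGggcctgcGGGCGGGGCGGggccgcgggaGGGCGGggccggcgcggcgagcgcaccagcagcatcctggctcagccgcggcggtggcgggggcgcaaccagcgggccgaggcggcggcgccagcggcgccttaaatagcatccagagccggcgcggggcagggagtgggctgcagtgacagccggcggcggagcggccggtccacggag
ACSL3, chr2:222860786-222861085, plus strand: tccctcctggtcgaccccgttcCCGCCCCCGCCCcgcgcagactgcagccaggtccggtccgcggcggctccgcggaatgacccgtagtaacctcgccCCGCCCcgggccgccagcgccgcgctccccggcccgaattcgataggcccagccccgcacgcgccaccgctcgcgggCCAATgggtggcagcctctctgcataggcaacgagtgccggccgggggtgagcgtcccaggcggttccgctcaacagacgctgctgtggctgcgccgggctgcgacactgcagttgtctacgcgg
ACSL5, chr10:112375018-112375317, plus strand: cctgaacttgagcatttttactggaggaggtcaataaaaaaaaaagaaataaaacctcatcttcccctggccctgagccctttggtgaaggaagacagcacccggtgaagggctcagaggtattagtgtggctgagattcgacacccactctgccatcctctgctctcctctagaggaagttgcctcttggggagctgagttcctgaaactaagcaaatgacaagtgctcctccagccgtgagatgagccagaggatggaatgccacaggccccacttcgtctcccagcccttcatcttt

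The starts of the family were of unlike composition. The stretches of ACSL1, ACSL3 and ACSL4 held 82.3%, 74% and 77.7% G and C, with an observed over expected CpG ratio of 0.95, 1.01 and 1.15, and 6, 3 and 3 GC box matches. That of ACSL5 held 51% G and C, a CpG ratio of 0.21 and no GC box match. Over the 35116 promoter stretches of the table the median was 58.7% G and C, and 45% held a GC box match. The outermost of the 7 ACSL6 starts held 54% G and C and no GC box match, while the one at 132011658 held 77.3% and 2. A CCAAT match stood in the ACSL3 stretch and in none of the other 4 outermost ones, against 34.6% of all stretches. None of these 5 stretches held TATAAA, the TATA box (11.5% of all), or CACGTG, an E-box (7.26%), on either strand. The members in differing domains, ACSL1 and ACSL5, thus had unlike promoters at their outermost starts. The other ACSL1 starts held 48 to 60.3% G and C, with CpG ratios of 0.16 to 0.30 and at most 1 GC box match. These values were nearer to those of ACSL5, whose other start held 50% and a ratio of 0.27.

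In the domain lists, ACSL3, ACSL4 and ACSL6 lay in domains with the same edges with and without fatty acids, and ACSL1 and ACSL5 lay in domains that were longer in the PA+OA list. Equal coordinates were thus found for 3 of 5 members (60%, exact 95% interval 14.7 to 94.7%, counting error only), against 34% of all protein-coding genes placed in both lists. A domain was called matched where both mock edges had a PA+OA edge within 1 bin and no further PA+OA boundary lay inside. The same 3 of 5 members met this rule, against 41.3% of all genes, and 3 of 5 also met it from the PA+OA side, against 41.2%. The other 2 of 5 lay in mock domains joined with neighbours into a single PA+OA domain, against 19.4% of all genes. No member lay in a mock domain that was split, against 15.8% of all genes, in one with 1 shared edge, against 18.3%, in one with none, against 5.23%, or in a shorter PA+OA domain, against 29.3%. A longer PA+OA domain, listed for 2 of 5 members, was listed for 36.2% of all genes. With 5 members the interval covers the share over all genes, but it is so wide that most shares would be covered. The members were chosen by name, not drawn at random, so these counts neither set the family apart nor show it alike.

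**Figure D1:**
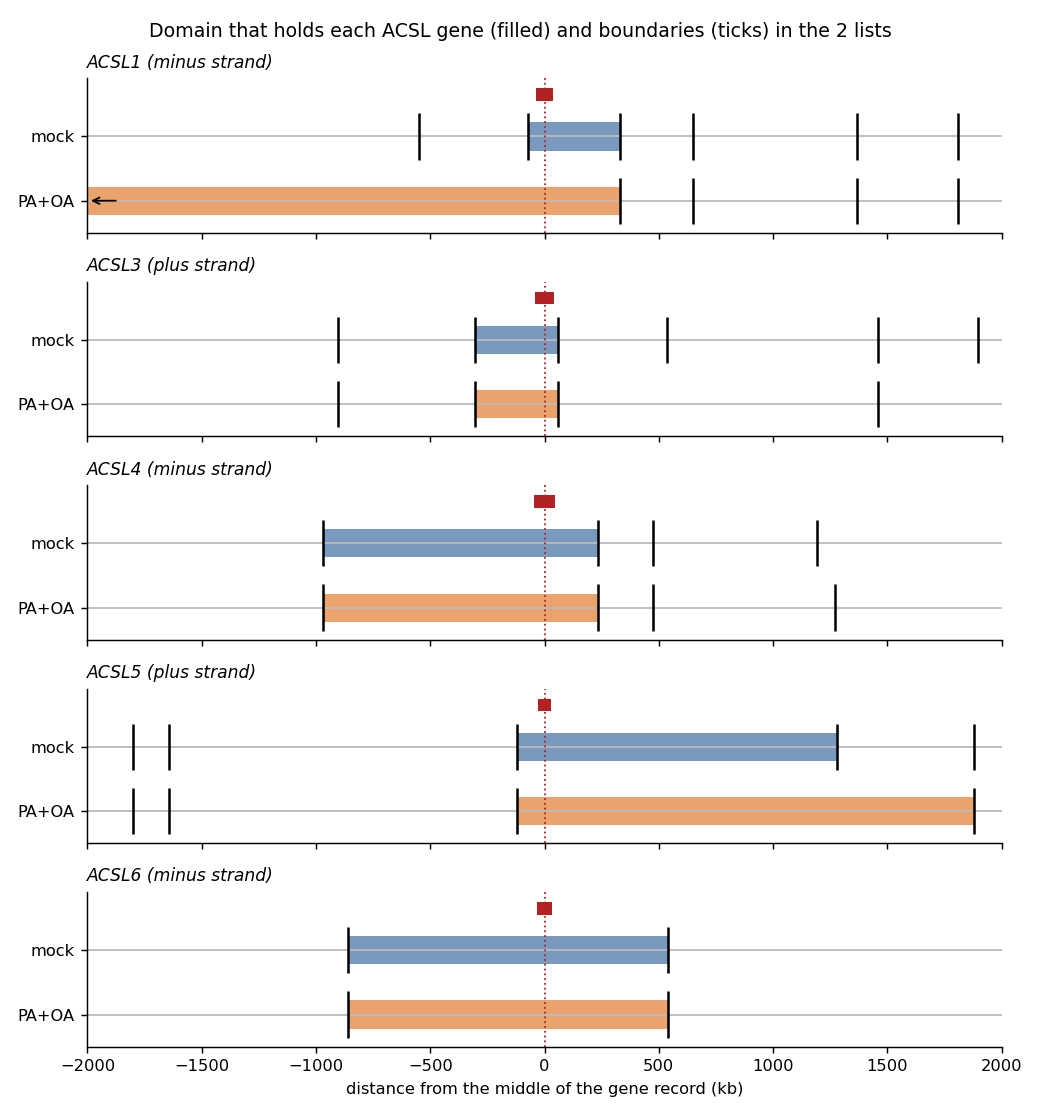
Domains around the 5 ACSL genes, by distance from the middle of the gene record in kb, up to 2 Mb on either side. Ticks are boundaries in the mock list (upper row of each panel) and the PA+OA list (lower row), the filled bar is the domain that holds the gene, the red bar is the gene record, and the arrow marks a domain that runs beyond the panel. The mock ticks at -71.1 and -551 kb from ACSL1 and at 1279 kb from ACSL5 have no counterpart below them, nor do 2 beyond ACSL3. For ACSL4 the mock tick at 1193 kb and the PA+OA tick at 1273 kb are 80 kb apart, so neither has a counterpart within 1 bin. The bars of ACSL3, ACSL4 and ACSL6 end at the same places in both rows.

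ACSL1 (gene ID 2180) had the largest difference of the family. The gene is at 184755595 to 184826594 on chromosome 4, on the minus strand. In the mock list it lay in a domain from 184720001 to 185120000, of 400 kb or 10 bins, which held 1 other protein-coding gene, HELT, a transcriptional repressor of neuron development. In the PA+OA list it lay in a domain from 182440001 to 185120000, of 2680 kb or 67 bins, with 16 other protein-coding genes. The PA+OA domain was 6.7 times as long, a difference of 2280 kb. A PA+OA domain longer by at least as much was listed for 2099 of 19602 genes (10.7%), and a difference of at least this size in either direction for 3124 (15.9%). The mock domain was contained whole in the PA+OA one and made up 14.9% of it.

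The PA+OA domain around ACSL1 took the place of 3 mock domains. The first, from 182440001 to 184240000, was 1800 kb long and held 10 genes, among them ENPP6, which encodes a choline-specific phosphodiesterase, STOX2 and TRAPPC11. The next, from 184240001 to 184720000, was 480 kb long and held 5 genes. Among them were CENPU, a kinetochore gene, PRIMPOL, which encodes a primase-polymerase, IRF2, which encodes an interferon regulatory factor, and MYL12BP2, listed as protein coding. CENPU, PRIMPOL, IRF2 and MYL12BP2 had their middles 77, 119, 360 and 484 kb from that of ACSL1, and ENPP6 had its middle 638 kb away. By their middles, these genes were across at least 1 boundary from ACSL1 in the mock list and in its domain in the PA+OA list.

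The mock boundary nearest to ACSL1, at 184720000, was 71.1 kb from the middle of the gene and 35.6 kb beyond its 3′ end. It fell inside the record of CENPU (184694085 to 184734096), 14.1 kb from the start of that gene. CENPU is on the minus strand, so its start lay on the ACSL1 side of this boundary and its middle on the other. The nearest PA+OA boundary to this position was 400 kb away, at 185120000, which was also the mock edge on the 5′ side of ACSL1. The next mock boundary, at 184240000, was 880 kb from any PA+OA boundary. From the middle of ACSL1 to the nearest boundary the distance was 71.1 kb without and 329 kb with fatty acids. Among all genes the nearest boundary was at the same position in both lists for 55.9%, and ACSL1 was the exception among the 5 members. That nearest boundary had a counterpart within 1 bin for 4 of 5 members seen from the mock list (74.1% of all genes) and for 5 of 5 seen from the other (77.4%). All 5 start sites of ACSL1 in the promoter table lay between the same edges as its middle in either list.

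On the 5′ side of ACSL1 the lists were alike. The edge at 185120000 stood 294 kb upstream of the outermost start site in both, and SLC25A4, which encodes the mitochondrial ADP/ATP carrier, was the nearest gene to it, with its start 23.3 kb beyond. The 4 boundaries from 185120000 to 186600000 were in the same bin in the lists. At the far edge of the PA+OA domain, 182440000, which was also a mock boundary, the adhesion gene TENM3 was cut, 9.02 kb from one of its start sites. The stretch of difference lay on the 3′ side of ACSL1, where it began 35.6 kb beyond the end of the gene and ran outward over 2280 kb.

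ACSL5 (gene ID 51703) was the other member in a joined domain. The gene is at 112374116 to 112428376 on chromosome 10, on the plus strand. Its domain ran from 112280001 to 113680000 in the mock list, 1400 kb or 35 bins, and from 112280001 to 114280000 in the PA+OA list, 2000 kb or 50 bins. The PA+OA domain was 1.43 times as long, and a PA+OA domain longer by 600 kb or more was listed for 24.3% of all genes, a difference of that size in either direction for 40.3%. The mock domain made up 70% of the PA+OA domain. It held 6 other protein-coding genes without fatty acids and 14 with them.

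The nearest boundary of ACSL5 did not differ. It stood at 112280000, 121 kb from the middle of the gene and 95.3 kb upstream of its outermost start site, in both lists. TECTB, a gene of the inner ear, was nearest to it, with its start 3.40 kb away. The edge that differed was the far one on the 3′ side, at 113680000, 1252 kb beyond the 3′ end of ACSL5 in the mock list and 600 kb from any PA+OA boundary. In the PA+OA list the edge on that side was at 114280000, inside VWA2, where the mock list also had a boundary.

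The genes that shared the domain of ACSL5 in both lists were ZDHHC6, 34.7 kb away by middles, TECTB, at 107 kb, VTI1A, at 250 kb, TCF7L2, at 658 kb, HABP2, at 1169 kb, and NRAP, at 1225 kb. ZDHHC6 encodes a protein palmitoyltransferase, an enzyme that itself uses palmitoyl-CoA, and TCF7L2 encodes a Wnt transcription factor linked to type 2 diabetes risk. HABP2 encodes a plasma protease made in the liver. In its domain in the PA+OA list alone were 8 genes, among them PLEKHS1, DCLRE1A, NHLRC2, ADRB1, which encodes a beta-adrenergic receptor, and CCDC186. The distances by middles of these 5 ran from 1366 kb for PLEKHS1 to 1746 kb for CCDC186.

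GPAM, which encodes the mitochondrial enzyme that adds the first acyl chain in glycerolipid synthesis, lay 212 kb from ACSL5 and was in another domain in both lists. The boundary at 112280000 stood between them, and GPAM was in a domain from 110760001 to 112280000, of 1520 kb, in either list. The pair of an acyl-CoA producing and an acyl-CoA using gene was thus set apart by the same boundary with and without fatty acids.

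ACSL3 (gene ID 2181) lay in the shortest domain of the family in both lists. The gene is at 222861036 to 222944639 on chromosome 2, on the plus strand, and its domain ran from 222600001 to 222960000 in both, 360 kb or 9 bins. By domain size, counted from the shortest, it stood at percentile 7.81 of all genes for the mock list and at 7.85 for the other. The gene record took up 23.2% of its domain. A boundary at 222960000 stood 57.2 kb from the middle and 15.4 kb beyond the 3′ end, the nearest to any member, and was in the same bin in both lists.

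The domain of ACSL3 held 2 other protein-coding genes. MOGAT1, which encodes a monoacylglycerol acyltransferase that uses acyl-CoA, was 212 kb away by middles, and FARSB, which encodes a subunit of phenylalanyl-tRNA synthetase and was cut by the edge at 222600000, was 291 kb away. In contrast to GPAM and ACSL5, MOGAT1 and ACSL3 had no boundary between them in either list. The antisense transcript ACSL3-AS1, inside the ACSL3 record, shared the domain. KCNE4, a potassium channel subunit gene 151 kb away on the other side, was beyond the boundary at 222960000 in both lists. The domain that followed that boundary was 480 kb long for mock and 1400 kb for PA+OA, where the list lacked the mock boundary at 223440000.

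ACSL4 (gene ID 2182) is at 109641335 to 109733257 on chromosome X, on the minus strand, and lay in a domain from 108720001 to 109920000 in both lists, 1200 kb or 30 bins. Its nearest boundary, at 109920000, was 233 kb from its middle and 187 kb upstream of its start in both. It shared the domain with KCNE5, a potassium channel subunit gene 62.9 kb away, NXT2, an mRNA export gene at 147 kb, GUCY2F, a retinal guanylate cyclase gene at 260 kb, and IRS4, an insulin receptor substrate gene at 959 kb, next to the far edge. TMEM164, 406 kb away on the start side, was in another domain in both lists. On chromosome X, 53.2% of the 77 mock edges had a PA+OA edge within 1 bin, the lowest share of the 5 chromosomes that carry a member, and 22.2% of its genes lay in matched domains. The 3 boundaries closest to ACSL4, at 108720000, 109920000 and 110160000, were in the same bin, and the next one, at 110880000 for mock, stood 80 kb away for PA+OA, at 110960000.

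ACSL6 (gene ID 23305) is at 131949973 to 132012213 on chromosome 5, on the minus strand, and lay in a domain from 131120001 to 132520000 in both lists, 1400 kb or 35 bins. It was the member farthest from any boundary, 539 kb by its middle in both lists, at percentile 68.1 of all genes in the mock list. Its 7 start sites in the promoter table lay in this domain. It also had the domain richest in genes among the mock domains of the family, with 13 other protein-coding genes or 10 coding genes per Mb in all. The cytokine genes IL3 and CSF2 were 80.8 and 93.9 kb away, MEIKIN, a meiotic kinetochore gene, 105 kb, and the prolyl hydroxylase gene P4HA2 228 kb. SLC22A5, which encodes the carnitine transporter that supplies carnitine for the import of long-chain acyl groups into mitochondria, was 402 kb away and in the same domain in both lists. The interferon regulatory factor gene IRF1, 505 kb away, and the antisense transcript ACSL6-AS1 were also inside, and the cytokine gene IL5 was nearest to the edge at 132520000, beyond it.

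The domain next to that of ACSL6 differed although its own did not. On the lower side it ran from 129160001 in the mock list, 1960 kb, and from 128240001 in the PA+OA list, 2880 kb. SLC27A6, a fatty acid transport protein and very long-chain acyl-CoA synthetase gene, lay in a mock domain of 200 kb from 128960001 to 129160000, and in that PA+OA domain of 2880 kb.

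**Figure D2:**
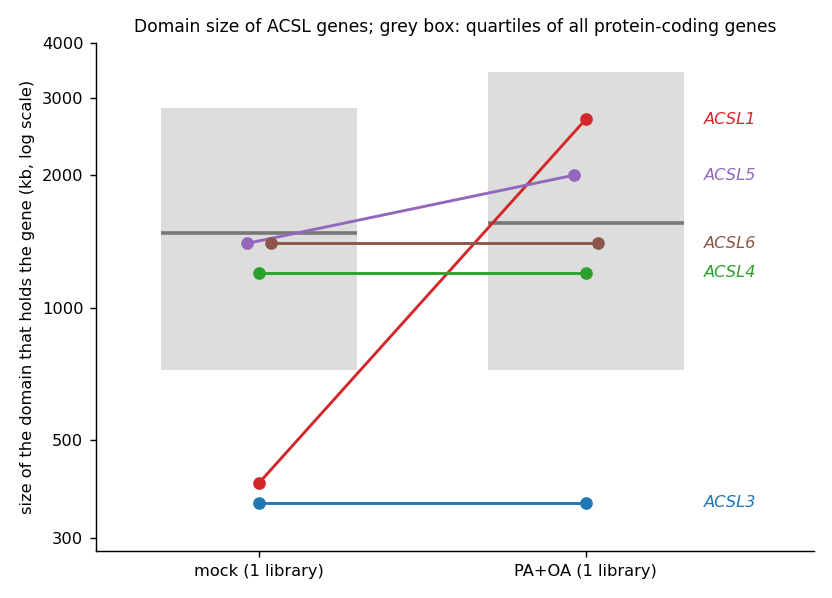
Size of the domain that holds each ACSL gene in the mock and PA+OA lists, in kb on a log scale, 1 library each. Grey boxes span the quartiles of 19602 protein-coding genes (720 to 2840 kb mock, 720 to 3440 kb PA+OA) with the median as a line. ACSL1 goes from 400 kb, below the box, to 2680 kb, inside it, ACSL5 goes from 1400 to 2000 kb, and ACSL3, ACSL4 and ACSL6 are level.

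By size, the mock domains of the family ran from 360 kb for ACSL3 through 400 kb for ACSL1 and 1200 kb for ACSL4 to 1400 kb for ACSL5 and ACSL6. ACSL3 and ACSL1 were 1 bin apart, which the lists barely resolve, and ACSL5 and ACSL6 were equal. In the PA+OA list the order was ACSL3, ACSL4, ACSL6, ACSL5 and ACSL1. The median size for the members was 1200 kb (mock) and 1400 kb (PA+OA), against 1480 and 1560 kb over all genes. All 5 mock domains were shorter than the mock median over all genes, those of ACSL5 and ACSL6 only slightly, at percentile 47.4 by size. In the PA+OA list the domains of ACSL1 and ACSL5, of 2680 and 2000 kb, were longer than the median over all genes. The median distance to a boundary for the members was 121 kb (mock) and 233 kb (PA+OA), against 298 and 314 kb. This distance was equal in both lists for 4 of 5 members and differed for ACSL1 alone (71.1 and 329 kb). The members' medians of size and distance thus differed between lists through ACSL1, not through the family as a whole. The median difference in domain size was 0 kb for the members and for all genes.

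The mock domains of ACSL1 and ACSL3 were also alike in gene count and in the place of the member. Both held few protein-coding genes, 2 and 3 counting the member, against a median of 16 over all genes, and the members lay near the 3′ side edge, 35.6 and 15.4 kb from it. The PA+OA list lacked that edge for ACSL1 and had it for ACSL3. A short domain has room for few genes and little distance to an edge, so neither likeness is separate from domain size. Per Mb the mock domains of ACSL1 and ACSL3 held 5 and 8.33 coding genes. Those of ACSL4, ACSL5 and ACSL6 held 4.17, 5 and 10.

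Seen along the direction of transcription, the edge upstream of the start was at the same position in both lists for 5 of 5 members, and for ACSL1 and ACSL5 the edge that differed was the one downstream. Over the 15532 protein-coding genes with a listed start site and a domain in both lists, the upstream mock edge had a PA+OA boundary within 1 bin for 73.7% and the downstream one for 74.1%. A shared upstream edge with an unshared downstream one was listed for 16.3% of genes, and the reverse for 16.6%. Of the 10 mock edges of the members' domains, 8 were in the same bin in the PA+OA list and 2 had no PA+OA boundary within 1 bin. Of the 10 PA+OA edges, 10 were in the same bin in the mock list. Matched and joined domains have by definition a mock edge within 1 bin of both PA+OA edges, so this count largely restates the classes. Over all listed edges, 71.5% of the mock ones and 75.3% of the PA+OA ones had a counterpart within 1 bin, a looser rule. The same-bin share over all edges is not given, so these counts do not set the members apart.

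**Figure D3:**
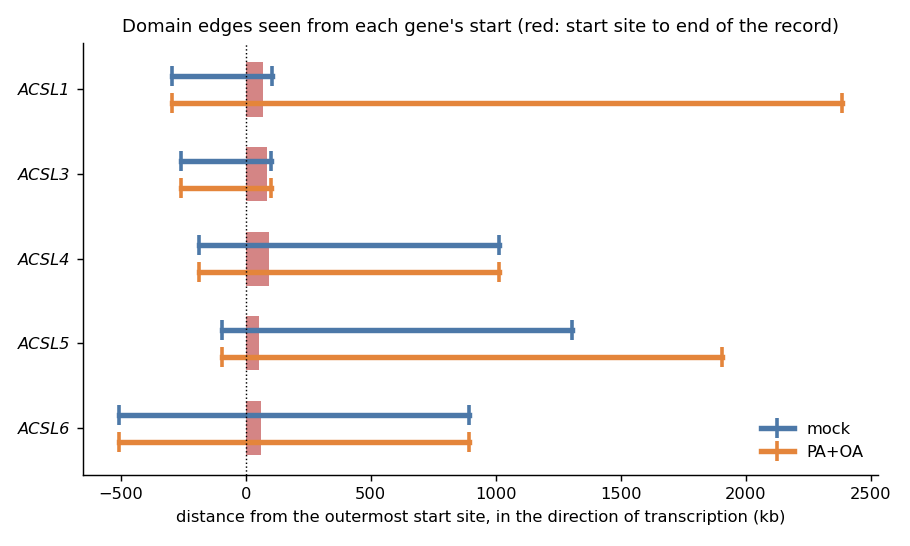
Domain edges of each ACSL gene, by distance in kb from its outermost start site in the direction of transcription, with the stretch from that start to the end of the record in red. Horizontal lines span the domain in the mock (blue) and PA+OA (orange) lists. The left ends coincide for all 5 genes, and the right ends differ for ACSL1 by 2280 kb and for ACSL5 by 600 kb.

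Within 2 Mb of the middles of the 5 genes the mock list had 23 boundaries and the PA+OA list 18. In the same bin of both were 17. Of the 6 mock boundaries with no PA+OA boundary within 1 bin, 2 were near ACSL1, 2 near ACSL3, 1 near ACSL5 and 1 near ACSL4, and the 1 such PA+OA boundary was that near ACSL4. Over all listed edges, 71.5% of 2566 in the mock list and 75.3% of 2439 in the PA+OA list had a counterpart within 1 bin. Leaving out entries of zero length, the mock list held more domains than the PA+OA list in the genome (2543 and 2416), on chromosome 4 (160 and 155), 5 (147 and 121), 10 (169 and 150) and X (76 and 70), and fewer on chromosome 2 (201 and 203). The part of this difference in the joined domains of ACSL1 and ACSL5 was not tested. No boundary of either list fell inside the record of a member, against 5.97% of all genes for the mock list and 5.71% for the PA+OA list.

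Matched domains held 36.4% of the genes of chromosome 4 (ACSL1), 46% of chromosome 2 (ACSL3), 22.2% of chromosome X (ACSL4), 66.9% of chromosome 10 (ACSL5) and 38.3% of chromosome 5 (ACSL6). ACSL5 thus differed on the chromosome where matched domains were most common among these, and ACSL4 did not on the one where they were least common.

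Other genes that make or use acyl-CoA came from 5 lists with 80 genes, of which 77 had a domain in both lists. The 3 outside at least 1 list were SLC27A5, DGAT1 and CPT1B. Matched domains held 36 of these 77 (46.8%), joined ones 10, split ones 8, domains with 1 shared edge 22 and domains with none 1. Over all genes matched domains held 41.3%, joined ones 19.4%, split ones 15.8%, domains with 1 shared edge 18.3% and domains with none 5.23%. Since genes side by side share a domain, the 77 genes lay in 67 distinct mock domains, of which 33 were matched (49.3%, Wilson 95% interval 37.7 to 60.9%, counting error only), against 49.7% of the 2229 mock domains that held any gene placed in both lists. Of the other acyl-CoA synthetases, 8 of 21 lay in matched domains, among them AACS (280 kb), AASDH (520 kb) and ACSF3 (1320 kb), first in alphabetical order. The largest differences were those of SLC27A2, a fatty acid transport protein with synthetase activity, from 3120 kb without to 17760 kb with fatty acids, ACSBG1, from 1040 to 6560 kb, and ACSBG2, from 7960 to 4920 kb. The 21 genes lay in 18 distinct mock domains, of which 5 were longer in the PA+OA list and 5 shorter. ACSM1, ACSM2A, ACSM2B and ACSM5 shared 1 of these. Over all genes, of 2671 pairs of a mock and a PA+OA domain that hold the same gene, 957 were longer in the PA+OA list and 801 shorter.

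The counts below stand beside the 41.3% of all genes in matched domains. Genes of acyl-CoA binding and hydrolysis lay in matched domains in 7 of 18 cases, including ACBD3, ACBD7 and ACOT7, and ACOT11 (2120 and 4880 kb), ACOT12 (3560 and 1600 kb) and ACOT9 (16320 and 17800 kb) differed most. ACOT1, ACOT2, ACOT4 and ACOT6 lie side by side and shared 1 domain in each list, so they are not independent. Of the acyltransferases that use acyl-CoA for glycerolipids and sterol esters, 10 of 20 lay in matched domains, including AGPAT2, AGPAT4 and GPAM, and LPCAT4 (5920 and 10280 kb), AGPAT1 (1760 and 600 kb) and LPCAT2 (2840 and 3680 kb) differed most. Of the genes of carnitine-dependent acyl transport, 5 of 7 did, including CPT1A, CPT1C and CPT2. CROT (1320 and 5280 kb) and SLC25A20 (440 and 280 kb) were the ones that did not. Of the elongases and desaturases, 6 of 11 did, including ELOVL1, ELOVL6 and FADS1, and ELOVL4 (6240 and 2400 kb), ELOVL7 (1600 and 2320 kb) and ELOVL2 (240 and 640 kb) differed most.

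**Figure D4:**
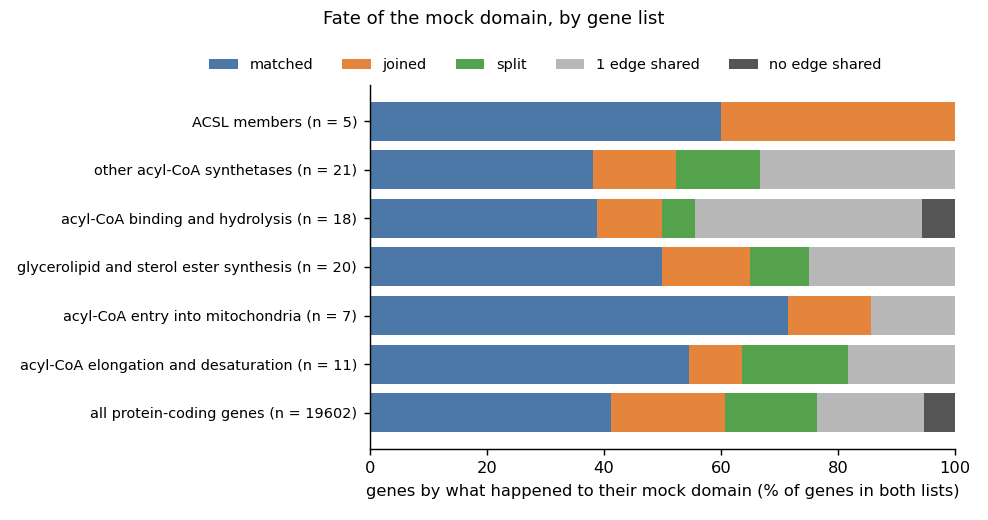
Share of genes by what became of their mock domain in the PA+OA list, in percent of the genes with a domain in both lists, for the ACSL genes, the other acyl-CoA lists and all protein-coding genes. Blue is matched, orange joined with a neighbour, green split, light grey 1 edge shared and dark grey none. The ACSL bar has 60% blue and 40% orange, and all genes have 41.3% blue and 19.4% orange.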

How the data were processed

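Per the submitters' processing notes, Hi-C reads were handled with FastQC and HiC-Pro on hg38. The sources used here do not give their versions, the domain caller or the matrix normalization. The authors' deposited files list each domain's chromosome, start and end in bp (1 list per library). All edges were multiples of 40 kb, and entries of zero length (136 mock, 108 PA+OA) added no boundary. Printed starts are 1-based.

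Genes came from RefSeq GRCh38.p14, the same build, placed by the middle of the record. Strand and start sites came from its promoter table, in which all 5 members matched. Classes were computed with Python 3.11.15 and pandas 2.3.3. The matched, split and joined classes were checked on simulated lists, and those with 1 or no shared edge were not. A joined mock domain lay inside a PA+OA domain whose outer edges both had mock edges within 1 bin. Named neighbours were the nearest gene on each side, those sharing the domain in both lists, up to 6 sharing it in 1 list, and the gene nearest each edge. Pathway genes were those near a member, up to 3 in the same domain and the 3 with the largest difference per list. SLC27A6 and the genes cut by an edge were chosen after their values were seen. The members and lists were chosen with earlier results of these data known. Some genes the naming rule covers are not reported here. Alternatives varied the tolerance, the placing position and the handling of short domains.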

Additional observations from a re-analysis of the deposited data

How the results depend on the processing

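The count of 3 of 5 members in matched domains was the same with a tolerance of 0, 2 or 3 bins, with genes placed by either end of the record, without zero-length entries and with matching by a reciprocal overlap of at least 90%. It was also 3 in 2 settings chosen after seeing the data, for PA+OA in place of mock domains and for genes placed by the outermost start site. None of these settings could have changed the count. The 3 matched domains have equal edges in both lists, and no boundary falls inside a member's record. The mock edges of ACSL1 and ACSL5 without a counterpart lie 400 and 600 kb from any PA+OA boundary. Their mock domains make up only 14.9% and 70% of the PA+OA ones. The differences in domain size of the 5 members were equal in all 20 alternatives run for them, which included domains of at most 2 bins joined to the preceding one. Most of these alternatives only moved the placing position within the record, which no boundary crosses, so they could not give another domain. The distance to the nearest boundary moved by a bin or more in 4 of 20 alternatives, all measured from the nearest record end, to 15.4 kb for ACSL3 and 187 kb for ACSL4 in both lists. The counts of the 5 pathway lists were within 1.5 times in all 25. No paired analysis was possible because each group has 1 library. No alternative tests the 1 library per group, the unknown depth or the unnamed caller, any of which could add or remove a boundary.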

Other observations

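Members of the same gene families stand beside different ACSL genes, a pattern picked after the positions were seen and given as values. The interferon regulatory factor genes IRF2 and IRF1 lie 360 kb from ACSL1 and 505 kb from ACSL6, the former across 1 mock boundary and no PA+OA boundary, the latter with none in either list. The potassium channel subunit genes KCNE4 and KCNE5 lie 151 kb from ACSL3 and 62.9 kb from ACSL4, the former across 1 boundary in both lists, the latter with none in either. The PDZ and LIM domain genes PDLIM3 and PDLIM4 lie 727 kb from ACSL1 and 284 kb from ACSL6, the former across 2 boundaries in both lists, the latter with none. Of these genes, IRF2 alone was in the domain of its ACSL neighbour in 1 list and outside it in the other.

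Several non-coding genes share the domain of ACSL1 in both lists, among them LINC01093 (105 kb from its middle) and the microRNA genes MIR3945 (60.0 kb) and MIR4455 (147 kb). The PA+OA domain of ACSL1 held 31 long non-coding RNA records against 6 in the mock domain, and that of ACSL5 held 13 against 7. These PA+OA domains were 6.7 and 1.43 times as long as the mock ones, so the counts are not densities and show no enrichment.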
